A study of Mus musculus with 16 samples.

Results

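The genes described here are 36 genes of the cell cycle and of DNA replication, followed in mouse liver RNA across 2 genotypes and 2 diets. They were chosen as a named list, and each was matched by its Ensembl gene ID in a table of 35275 gene IDs. All 36 were found and were above 0 in at least 4 libraries, and 21 of them had at least 1 FPKM in at least 4 libraries. FPKM is a read count scaled by the length of the gene and by the size of the library. The study compared wild-type mice (WT) with mice whose Zfp36l1 gene was deleted in the liver (LKO), and each genotype received either a control diet or a diet containing ethanol. The 4 groups, WT control, WT ethanol, LKO control and LKO ethanol, held 4 libraries each of total liver RNA. The Cre driver of the deletion, the strain, the sex, the age and the length of feeding are not given in the sources used here. Libraries are named by group and a number from 1 to 4 given in accession order.

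A dividing cell passes through fixed steps, each with its own genes. Cyclins D and E switch on cyclin-dependent kinases in G1, E2F factors then switch on the replication genes, and the MCM helicase is loaded at origins before S phase. Cyclins A and B with Cdk1 drive mitosis, and Foxm1 is a main activator of the mitotic genes. Adult hepatocytes mostly rest outside the cycle and can re-enter it when liver tissue is lost or injured. The product of Zfp36l1 is an RNA-binding protein that attaches to AU-rich elements, mostly in 3′ untranslated regions, and hastens decay of its targets.

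Zfp36l1 itself, at chr12:80107754-80113013 on the minus strand of GRCm38, was measured first as a check of the labels. It was at 9.79, 9.3, 25.5 and 14.8 FPKM in the WT control libraries and at 9.87, 13.1, 21 and 23.3 FPKM in the WT ethanol libraries. It was at 1.03, 0.836, 1.42 and 1.4 FPKM in the LKO control libraries and at 0.688, 0.572, 1.6 and 1.76 FPKM in the LKO ethanol libraries. Every LKO library lay below every WT library, the lowest WT value being 9.30 and the highest LKO value 1.76 FPKM. By limma, LKO minus WT was -3.46 (SE 0.41) on the log2 scale on control diet, with adjusted p = 0.00654, and -3.81 (SE 0.41) on ethanol, with adjusted p = 0.00181. The labels do not say which cells lost the gene, and the libraries hold all cells of the liver.

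The libraries were not alike in quality. Total reads were 9890475 in WT ethanol 2 and between 19069903 and 24768569 in the other 15 libraries. WT ethanol 2 also ordered the genes differently, with a Spearman correlation of 0.667 to 0.715 with the other libraries, against 0.924 to 0.968 among those 15. Its share of mitochondrial reads was 22.5%, against 3.64% to 6.97%, and the summed level of its 7 erythroid markers was 1274 FPKM against at most 138 FPKM. Among the other 15 libraries, the first principal component of the differences within groups held 25.5% of that variance. It put libraries 1 and 2 of a group on one side and libraries 3 and 4 on the other, WT ethanol 1 being alone of its group on the first side. LKO ethanol 3 was placed on the second side with a score of 0.254, between LKO ethanol 2 at -6.24 and LKO ethanol 4 at 33.6. The labels name no batch. Hepatocyte markers were high in all libraries, with 6 markers summing to between 43253 and 75140 FPKM.

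Differences are given as log2(FPKM + 0.1) with the standard error (SE) of a limma fit over 20520 genes, a scale that understates changes of low genes. A gene was called when its p, adjusted over all 20520 genes by the Benjamini-Hochberg method, was under 0.05. Group values are means ± SD with n = 4 libraries. As nothing states that the libraries came from separate animals, the p-values measure the spread between libraries.

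Most of the 36 genes were low. Their mean over the 16 libraries was under 1 FPKM for 15 genes, from 1 to 10 FPKM for 17 genes and above that for 4 genes, namely Ccnd1, Cdk4, Pcna and Tk1. Exons of Cdk4 share 641 of 3249 bases with Tspan31 on the opposite strand, whose mean was 76.7 FPKM against 14.8 FPKM for Cdk4. Cdc6, Aurkb, Bub1 and Plk1 had no read in at least 1 library and the other 32 genes had reads in all 16. In bulk liver RNA, fewer dividing cells and less RNA per dividing cell cannot be told apart.

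Promoter windows of 250 bases before the start were taken from RefSeq on GRCm38.p6 for 28 of the 36 genes. Ccna2, Ccnd1, Ccnd2, Ccne2, Aurkb, Foxm1, Stmn1 and Mcm4 were not matched. Both strands were searched for the E2F letters TTTGGCGC, TTTCCCGC, TTTCGCGC and TTTGCCGC, for TTTGAA and TTCGAA, the letters of the CHR element of mitotic genes, and for CCAAT, bound by NF-Y. E2F letters were in 6 of the 28 windows, 21.4%, and in 1.86% of 32851 RefSeq windows of the same length. CHR letters were in 9, 32.1% against 17.1%, and CCAAT in 20, 71.4% against 33.8%. By role, E2F letters were in 4 of 7 licensing genes, 1 of 4 G1 genes and 1 of 4 S-to-M cyclins and kinases, and in no other role. CHR letters were in 3 of 4 S-to-M genes, both chromosome genes, 2 of 7 licensing genes and E2f8. They were in 1 of 5 mitotic kinase and checkpoint genes, and in 0 of the G1 and of the clamp and nucleotide genes. The window of Mcm7 lies 539 bases from its GENCODE start.

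The windows of the 2 called genes, and of Mcm6 and Top2a, which hold the most E2F and CHR letters, are shown with matches on either strand in capitals. All are on the minus strand and are printed 5′ to 3′ of the gene.
Mcm2, chr6:88898781-88899030: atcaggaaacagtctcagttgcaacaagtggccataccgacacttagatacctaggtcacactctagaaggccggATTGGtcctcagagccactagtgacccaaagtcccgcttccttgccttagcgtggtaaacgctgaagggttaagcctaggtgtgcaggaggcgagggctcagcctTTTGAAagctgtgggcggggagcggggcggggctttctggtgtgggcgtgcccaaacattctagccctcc
Tk1, chr11:117826015-117826264: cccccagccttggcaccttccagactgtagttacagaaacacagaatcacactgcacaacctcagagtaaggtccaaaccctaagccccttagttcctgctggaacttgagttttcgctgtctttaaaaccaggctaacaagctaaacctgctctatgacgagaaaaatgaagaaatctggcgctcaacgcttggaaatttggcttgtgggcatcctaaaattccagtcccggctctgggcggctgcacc
Mcm6, chr1:128359706-128359955: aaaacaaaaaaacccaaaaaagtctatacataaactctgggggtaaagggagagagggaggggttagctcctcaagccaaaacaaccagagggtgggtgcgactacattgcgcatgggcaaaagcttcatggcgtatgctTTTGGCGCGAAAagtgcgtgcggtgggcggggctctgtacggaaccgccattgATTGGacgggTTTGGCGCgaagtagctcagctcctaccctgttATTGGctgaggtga
Top2a, chr11:99024190-99024439: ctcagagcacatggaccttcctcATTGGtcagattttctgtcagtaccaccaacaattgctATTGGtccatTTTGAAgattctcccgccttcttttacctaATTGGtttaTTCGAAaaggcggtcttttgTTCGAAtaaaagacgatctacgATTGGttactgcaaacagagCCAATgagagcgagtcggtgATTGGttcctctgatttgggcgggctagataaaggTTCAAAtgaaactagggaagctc
Mcm2, which rose with ethanol in WT, has 1 CHR match and 1 CCAAT match, and Tk1, which fell with ethanol in WT, has no match to any of these letters in its window. Mcm6 has 3 E2F matches, 2 of which overlap, and 2 CCAAT matches. Top2a has 4 CHR and 6 CCAAT matches. A match is a description of the letters and not a measured site.

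The heptamer TATTTAT, the core of the AU-rich sites that proteins of the Zfp36 family bind, was searched in the 3′ untranslated regions of GENCODE M21. It was present in 10 of the 36 genes, 27.8%, and in 26.3% of 15807 tested genes. The sites of Mcm2, Mcm5, Cdk2, Ccnd1 and E2f8 are shown because results are given for these genes by library, with the heptamer in capitals, 5′ to 3′ on the strand of the gene.
Mcm2, chr6:88883820-88883844: ttaaatgacTATTTATtcttctgcc
Mcm5, chr8:75127880-75127904: ccagggcttTATTTATagcaagtgg
Cdk2, chr10:128698172-128698196: gaacaattaTATTTATatttcaagt
Ccnd1, chr7:144931312-144931336: acagaagagTATTTATgggaaaggc
E2f8, chr7:48866472-48866496: gaaaaaaatTATTTATaaaatgtat
Mcm5 is on the plus strand and the others on the minus strand of GRCm38.

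In WT livers on ethanol, Mcm2 rose and Tk1 fell, and no other of the 36 genes was called by limma. The 2 called genes are to be read against 1.9% of all tested genes called in this comparison. The differences of 30 of the 36 genes were above 0, with a median of 0.66 against 0.05 over all tested genes. At an unadjusted p under 0.05, 14 genes were higher and 2 lower, where the shares over all genes were 11.1% and 6.74%. In LKO livers on ethanol, 0 of the 36 genes were called by limma, and by voom also 0, against 0.132% of all tested genes. There, 27 of the 36 differences were below 0, with a median of -0.42 against 0.06 over all genes. At an unadjusted p under 0.05, 0 genes were higher and 4 lower, where the shares over all genes were 4.32% and 2.67%. In LKO, 6 genes lay lower on ethanol without overlap, namely Tk1, Mcm5, Cdk2, Aurka, Mcm4 and Ccnd3, and 0 higher, against 3.07% and 5.93% of all genes.

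**Figure D1:**
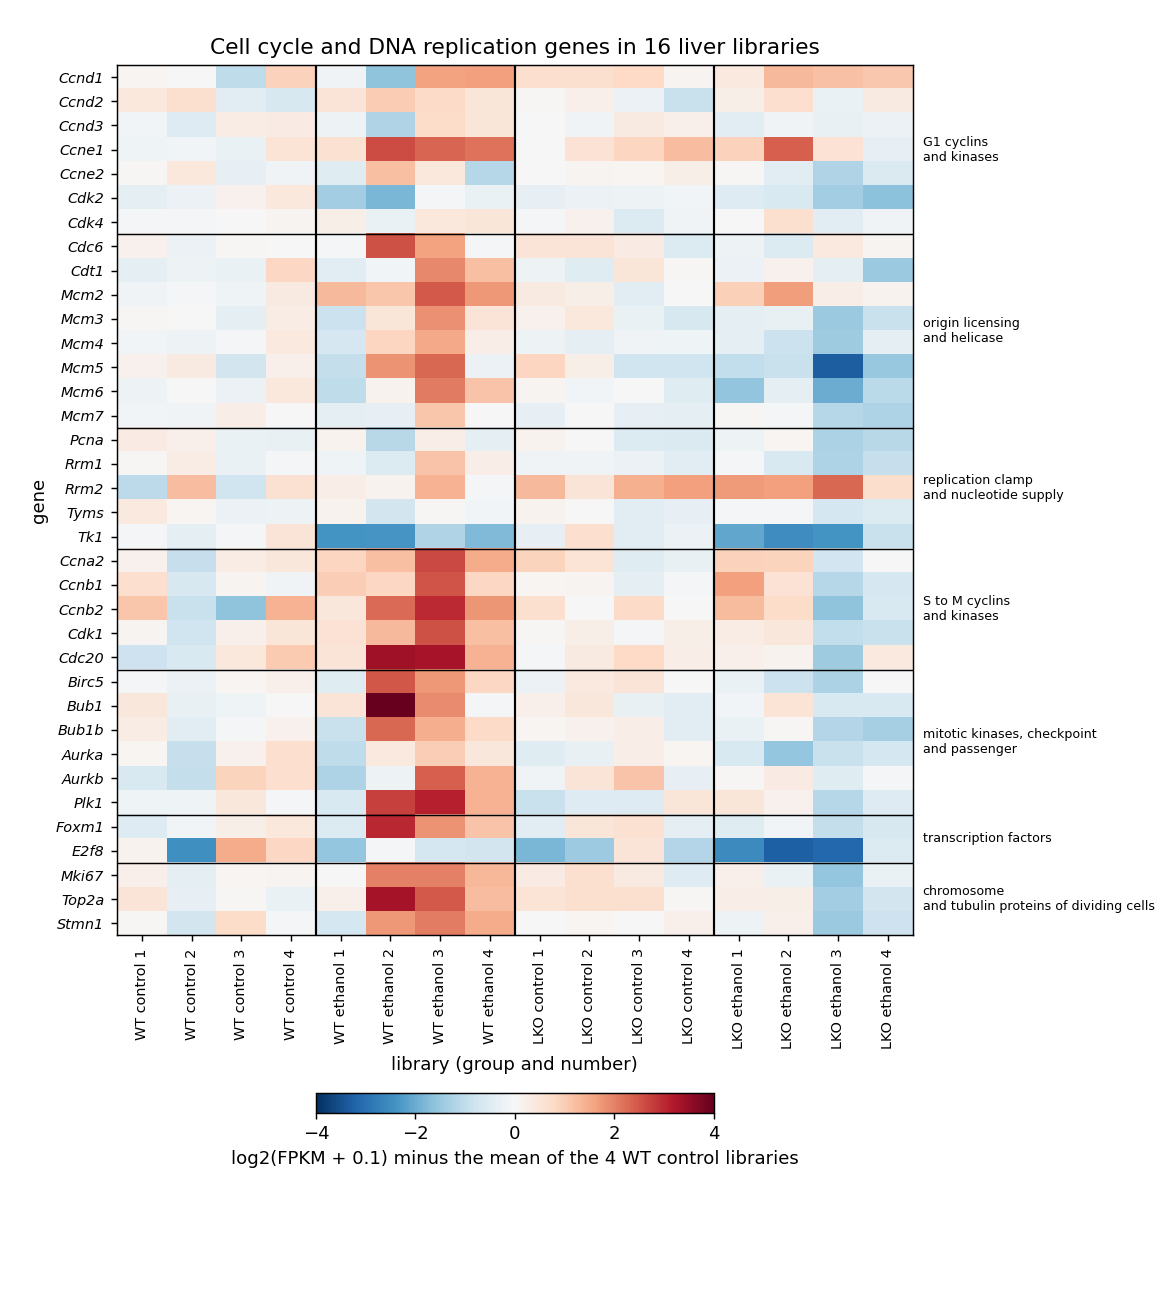
Each row is 1 of the 36 genes, grouped by role, and each column 1 of the 16 libraries. Colour gives log2(FPKM + 0.1) minus the mean of the 4 WT control libraries, from blue (lower) to red (higher), limited at 4 in each direction. WT ethanol 3 was the highest of all libraries for 17 genes and WT ethanol 2 for 11, and LKO ethanol 3 was the lowest for 17.

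The 4 WT ethanol libraries did not respond alike. In WT ethanol 3, 30 of the 36 genes lay above all 4 WT control libraries, and in WT ethanol 2 and 4 this held for 21 genes each. In WT ethanol 1, 7 genes did so. Below all 4 controls lay 15 genes in WT ethanol 1 (41.7% against 28.8% of all genes) and 9 in WT ethanol 2 (25% against 45.8%). In WT ethanol 3, 1 gene did so (2.78% against 11.6%), and in WT ethanol 4, 3 genes (8.33% against 9.89%). As shares of the 36 genes, those above all 4 controls were 19.4%, 58.3%, 83.3% and 58.3% in WT ethanol 1 to 4, beside 22.5%, 32.2%, 41.0% and 49.6% of all tested genes. The 36 genes thus stood further above all genes in WT ethanol 2 and 3 than in WT ethanol 4, and not above them in WT ethanol 1. Among the LKO ethanol libraries, 28 genes in library 3 and 23 in library 4 lay below all 4 LKO controls, against 25.8% and 13.8% of all genes. In LKO ethanol 1 and 2, 11 and 10 genes did so, against 17.5% and 15.9%. Above all 4 LKO controls lay 10 genes in each of LKO ethanol 1 and 2 (27.8%, against 28.4% and 38.6% of all genes). In each of LKO ethanol 3 and 4, 2 genes did so (5.56%, against 20.7% and 29.5% of all genes).

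**Figure D2:**
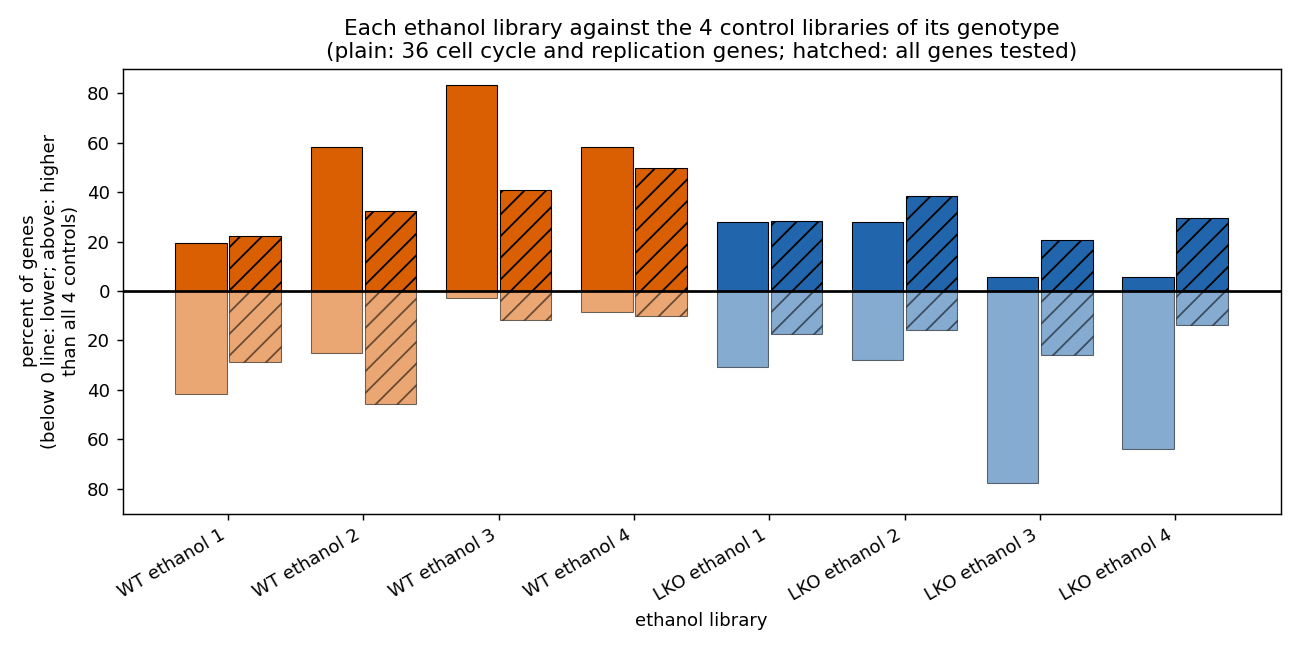
For each of the 8 ethanol libraries, bars above the 0 line give the percent of genes higher than all 4 control libraries of the same genotype, and bars below it the percent lower than all 4. Plain bars are the 36 genes and hatched bars all 20520 tested genes. In WT ethanol 3 the plain bar reaches 83.3% against 41.0% for all genes, and in LKO ethanol 3 the downward bar reaches 77.8% against 25.8%.

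The 7 G1 cyclins and kinases gave 0 calls by limma in either genotype, with 1 higher and 1 lower at an unadjusted p under 0.05 in WT and 1 lower in LKO. Ccnd1, the D-type cyclin that answers to growth signals, was at 16.1, 15.3, 7.45 and 29 FPKM in the WT control libraries and at 13.9, 4.95, 47 and 47.3 FPKM in the WT ethanol libraries. In LKO, Ccnd1 was at 24.5, 23.8, 26.2 and 16.5 FPKM on the control diet and at 19.9, 37.3, 34.6 and 32.1 FPKM on ethanol. WT ethanol 3 and 4 were the highest and WT ethanol 2 the lowest of all libraries, so the WT groups overlapped. The ethanol difference was 0.38 (SE 0.58) in WT and 0.43 (SE 0.58) in LKO, neither larger than its error. Its exons share 1100 of 4709 bases with LTO1 on the opposite strand, and reads of the pair cannot be told apart if strand was not used in counting.

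Ccne1, a cyclin that activates Cdk2 at the entry into S phase, was at 0.42, 0.44, 0.39 and 0.768 FPKM in WT control and at 0.797, 3.49, 2.86 and 2.56 FPKM in WT ethanol. It was at 0.483, 0.769, 0.966 and 1.27 FPKM in LKO control and at 1.0, 3.01, 0.78 and 0.363 FPKM in LKO ethanol. WT ethanol 1 lay just above the highest WT control library, and the other WT ethanol libraries lay far above it. The means were 0.504 ± 0.177 and 2.43 ± 1.15 FPKM in WT, a ratio of 4.81. The difference was 1.93 (SE 0.54) with an adjusted p of 0.078, short of a call. It was called when WT ethanol 1 was left out (2.37, adjusted p = 0.020) and when LKO ethanol 2 was left out (adjusted p = 0.041).

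Cdk2, the kinase partner of cyclins E and A, went the other way. It was at 4.33, 4.74, 6.26 and 7.6 FPKM in WT control and 2.09, 1.5, 5.44 and 4.66 FPKM in WT ethanol, then 4.39, 4.74, 4.87 and 5.15 FPKM in LKO control and 3.86, 3.66, 2.05 and 1.74 FPKM in LKO ethanol. The LKO groups did not overlap and the WT groups did. Averaged over both genotypes, the ethanol difference was -0.85 (SE 0.27) with an adjusted p of 0.098. It was called in 6 of 28 alternatives, with adjusted p from 0.0103 to 0.191 over the 28, among them quantile normalization (-0.97, adjusted p = 0.019) and leaving out WT ethanol 3 (-0.99, adjusted p = 0.048). Ccnd2, Ccnd3, Ccne2 and Cdk4 had ethanol differences between -0.05 and 0.69 in WT and between -0.64 and 0.46 in LKO, with no call. Exons of Ccne2 share 609 of 3495 bases with Ints8 on the opposite strand, whose mean was 3.99 FPKM.

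**Figure D3:**
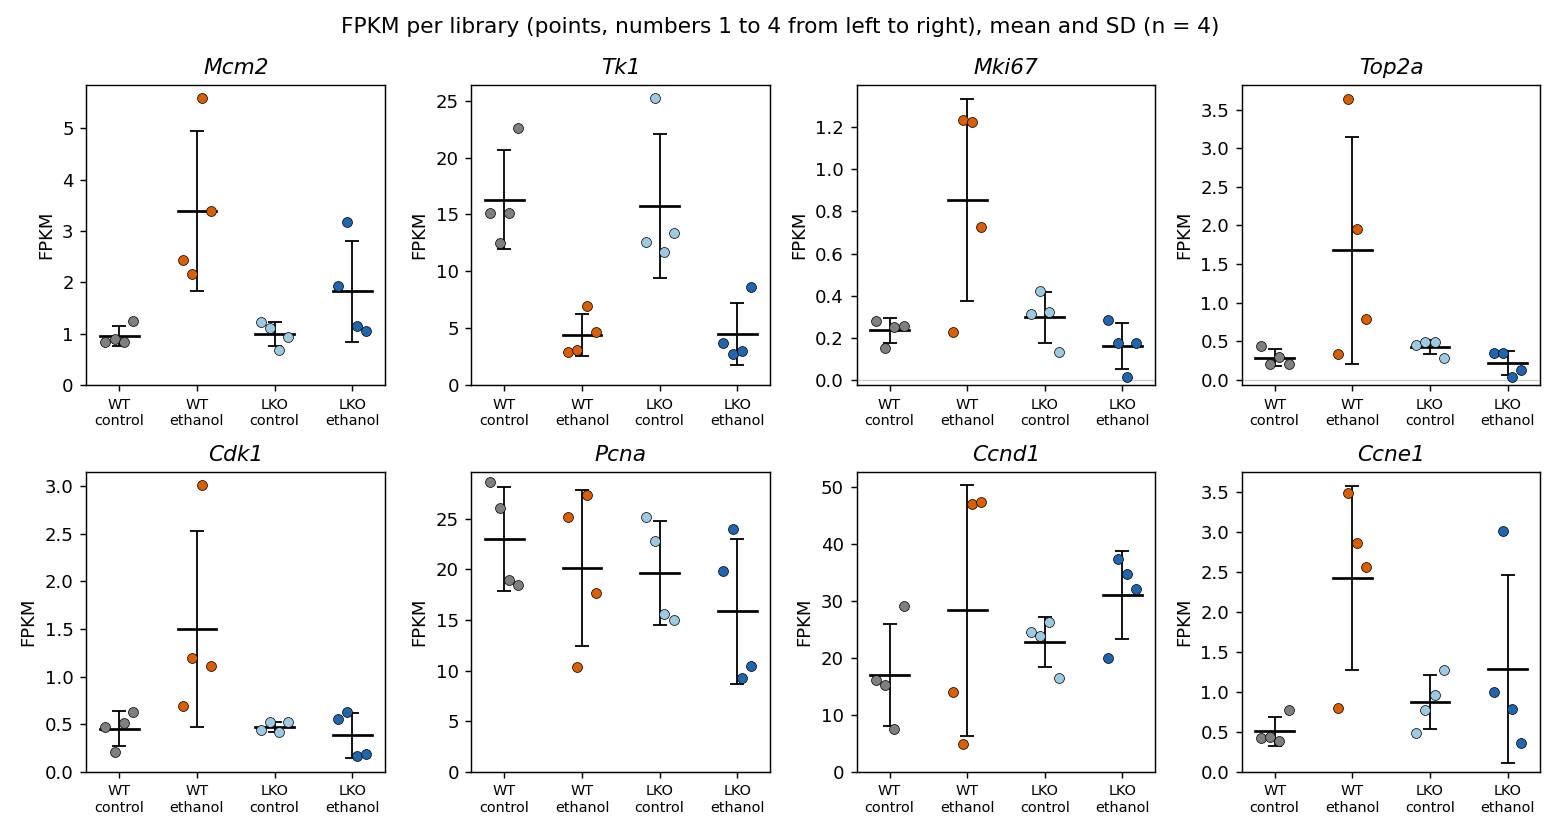
FPKM of 8 of the genes in each library, with 1 panel per gene and its own axis. Points are libraries 1 to 4 from left to right within a group, and bars are the mean and SD of 4 libraries. Tk1 is lower in all ethanol libraries than in all control libraries of the same genotype, and Mki67, Top2a and Cdk1 spread widely among the WT ethanol libraries.

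The 8 genes of origin licensing and helicase comprise Cdc6 and Cdt1, which load the helicase, and Mcm2 to Mcm7, which form it. All 8 differences were above 0 with ethanol in WT, with a median of 0.61, and 1 was called. That median was 1.06 without WT ethanol 1. It was -0.38 among libraries of the first side, where WT ethanol 1 is the only WT ethanol library. Mcm2 was at 0.84, 0.896, 0.828 and 1.24 FPKM in WT control and at 2.42, 2.16, 5.6 and 3.38 FPKM in WT ethanol. Mcm2 was at 1.23, 1.11, 0.683 and 0.942 FPKM in LKO control and at 1.93, 3.18, 1.15 and 1.04 FPKM in LKO ethanol. The WT groups did not overlap, and LKO ethanol 1 and 2 but not 3 and 4 stood above the LKO controls. The mean went from 0.951 ± 0.194 to 3.39 ± 1.56 FPKM in WT, a ratio of 3.57 and a difference of 1.65 (SE 0.37) with adjusted p = 0.038.

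The call of Mcm2 in WT was near the threshold. It was lost on leaving out any of the 4 WT control libraries, WT ethanol 3 or 4, any of the 4 LKO control libraries or LKO ethanol 1, with adjusted p from 0.050 to 0.11. Its difference remained between 1.38 and 1.83 in these and the other settings without 1 library. In LKO the Mcm2 difference was 0.71 (SE 0.37) with adjusted p = 0.79, and the mean over both genotypes was 1.18 (SE 0.26) with adjusted p = 0.02. For that mean, 2 of the 36 genes were called, Mcm2 and Tk1, against 3.89% of all tested genes. At an unadjusted p under 0.05, 4 were higher and 2 lower for that mean, where the shares over all genes were 10.3% and 6.68%.

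Mcm5 was at 1.13, 1.31, 0.564 and 1.16 FPKM in WT control and at 0.466, 3.75, 5.33 and 0.836 FPKM in WT ethanol. Mcm5 was at 1.87, 1.2, 0.529 and 0.537 FPKM in LKO control and at 0.45, 0.499, 0.013 and 0.283 FPKM in LKO ethanol. WT ethanol 2 and 3 were far above the controls, WT ethanol 4 within them and WT ethanol 1 below them, while all LKO ethanol libraries lay below all LKO controls. The value of LKO ethanol 3 rests on 1 read. The LKO difference was -1.54 (SE 0.70) with adjusted p = 0.68.

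Mcm6 was at 1.17, 1.36, 1.14 and 1.86 FPKM in WT control and 0.625, 1.51, 6.08 and 3.09 FPKM in WT ethanol, then 1.46, 1.25, 1.38 and 0.93 FPKM in LKO control and 0.386, 1.01, 0.266 and 0.584 FPKM in LKO ethanol. WT ethanol 3 was the highest library, WT ethanol 1 lay below its controls, and 3 of the 4 LKO ethanol libraries lay below all LKO controls. Its differences were 0.59 (SE 0.52) in WT and -1.14 (SE 0.52) in LKO. Mcm7, the most abundant of the helicase genes, was at 3.68, 3.61, 4.75 and 3.97 FPKM in WT control and 3.05, 3.17, 8.77 and 4.0 FPKM in WT ethanol. In LKO, Mcm7 was at 3.15, 4.02, 3.15 and 2.99 FPKM on control diet and 4.08, 3.78, 1.74 and 1.65 FPKM on ethanol. WT ethanol 3 stood alone above the other libraries and LKO ethanol 3 and 4 were the lowest. Mcm3, Mcm4, Cdc6 and Cdt1 differed by 0.48 to 1.01 with ethanol in WT and by -0.69 to -0.27 in LKO, with no call.

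The 5 genes of the replication clamp and of nucleotide supply had a median ethanol difference of -0.16 in WT and -0.38 in LKO, and 1 was called. In WT 2 of the 5 were above 0, but without WT ethanol 2 the WT median was 0.03, with 4 above 0. Tk1, the thymidine kinase of the salvage pathway, was at 15.1, 12.5, 15.1 and 22.6 FPKM in WT control and at 2.93, 3.05, 6.93 and 4.66 FPKM in WT ethanol. Tk1 was at 12.6, 25.2, 11.7 and 13.4 FPKM in LKO control and at 3.67, 2.74, 2.97 and 8.59 FPKM in LKO ethanol. Neither genotype's diet groups overlapped. Between control and ethanol the mean went from 16.3 ± 4.35 to 4.39 ± 1.87 FPKM in WT and from 15.7 ± 6.36 to 4.49 ± 2.76 FPKM in LKO, ratios of 3.72 and 3.5.

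The Tk1 difference was -1.92 (SE 0.38) in WT with adjusted p = 0.023, and -1.87 (SE 0.38) in LKO with adjusted p = 0.07. Over both genotypes it was -1.90 (SE 0.27) with adjusted p = 0.00194, the smallest among the 36 genes in any comparison. The difference of the 2 responses was 0.05 (SE 0.54). In WT the call was lost without WT control 1, 2 or 4 or WT ethanol 4, with adjusted p from 0.051 to 0.083. In LKO it was gained without WT ethanol 2 (adjusted p = 0.021) or LKO ethanol 4 (adjusted p = 0.016). The mean over both genotypes stayed called on leaving out any 1 library. Exons of Tk1 share 83 of 5198 bases with Afmid on the opposite strand.

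Pcna, the sliding clamp of the replication fork, was at 28.6, 26.1, 19 and 18.4 FPKM in WT control and 25.2, 10.4, 27.4 and 17.7 FPKM in WT ethanol. In LKO, Pcna was at 25.2, 22.8, 15.6 and 14.9 FPKM on control diet and 19.8, 24, 9.27 and 10.5 FPKM on ethanol. The groups overlapped throughout. Its ethanol difference was -0.26 (SE 0.35) in WT and -0.38 (SE 0.35) in LKO.

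Rrm2, the inducible subunit of ribonucleotide reductase, was at 1.24, 6.35, 1.48 and 4.09 FPKM in WT control and 3.23, 2.95, 7.04 and 2.59 FPKM in WT ethanol. Rrm2 was at 6.61, 3.79, 7.28 and 8.53 FPKM in LKO control and 8.92, 8.47, 13.3 and 4.34 FPKM in LKO ethanol. WT control varied from 1.24 to 6.35 FPKM, and LKO ethanol 3, the lowest library for many of the other genes, was the highest for Rrm2. LKO minus WT was 1.21 (SE 0.50) on control diet and 1.14 (SE 0.50) on ethanol, with adjusted p of 1.0 and 0.38. Rrm1 and Tyms differed by 0.17 and -0.16 with ethanol in WT and by -0.47 and -0.18 in LKO.

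The 5 cyclins and kinases of S phase to mitosis had the highest median difference of the 7 role groups in WT, 1.55, and 0 of 5 were called by limma. All 5 had an unadjusted p under 0.05, and 3 of them, Cdk1, Ccna2 and Ccnb1, did not overlap between the WT groups. Exons of Ccna2 share 510 of 4083 bases with Exosc9 on the opposite strand, whose mean was 3.15 FPKM against 0.41 FPKM for Ccna2. Over all 36 genes, 5 were higher without overlap, against 5.21% of all tested genes, and 1 lower, against 3.41%. Cdk1, the kinase of mitotic entry, was at 0.472, 0.203, 0.512 and 0.632 FPKM in WT control and 0.694, 1.19, 3.01 and 1.11 FPKM in WT ethanol. In LKO, Cdk1 was at 0.442, 0.519, 0.413 and 0.521 FPKM on control diet and 0.55, 0.624, 0.17 and 0.182 FPKM on ethanol. WT ethanol 3 was the highest of all libraries and LKO ethanol 3 and 4 the lowest. The difference was 1.41 (SE 0.45) in WT with adjusted p = 0.12 and -0.39 (SE 0.45) in LKO.

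Ccnb2, a cyclin B, was at 0.749, 0.109, 0.0266 and 0.934 FPKM in WT control and 0.434, 1.77, 2.97 and 1.24 FPKM in WT ethanol. Ccnb2 was at 0.513, 0.297, 0.56 and 0.298 FPKM in LKO control and 0.848, 0.554, 0.0289 and 0.157 FPKM in LKO ethanol. The WT controls spread widely and overlapped WT ethanol 1 alone. Cdc20, which activates the anaphase-promoting complex, was at 0.0877, 0.117, 0.343 and 0.589 FPKM in WT control and 0.373, 3.44, 3.22 and 0.784 FPKM in WT ethanol. Cdc20 was at 0.221, 0.325, 0.482 and 0.303 FPKM in LKO control and 0.286, 0.264, 0.0248 and 0.338 FPKM in LKO ethanol. WT ethanol 2 and 3 were the highest libraries, and WT ethanol 1 lay within the controls. The difference of Cdc20 in WT, 2.16 (SE 0.64), was the highest of the 36 genes, with adjusted p = 0.096.

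The 6 genes of mitotic kinases, checkpoint and chromosomal passenger are Aurka, Aurkb, Plk1, Bub1, Bub1b and Birc5. All 6 differences were above 0 in WT, with a median of 1.02, and 5 of 6 were below 0 in LKO, with a median of -0.52. The WT median was 1.60 without WT ethanol 1. It was -0.43 among libraries of the first side, where WT ethanol 1 is the only WT ethanol library. Aurka, a kinase of the spindle poles, was at 1.27, 0.594, 1.36 and 1.99 FPKM in WT control and 0.54, 1.59, 2.49 and 1.69 FPKM in WT ethanol. Aurka was at 0.83, 0.96, 1.47 and 1.27 FPKM in LKO control and 0.76, 0.348, 0.608 and 0.699 FPKM in LKO ethanol. The LKO groups did not overlap and the WT groups did. The other 5 ranged from 0.59 to 1.83 in WT. The WT ethanol value of Bub1, a kinase of the spindle checkpoint, is named after its values were seen. It was 4.73 FPKM in WT ethanol 2 and between 0.044 and 0.469 FPKM in the other WT ethanol libraries, and without WT ethanol 2 the difference was 0.78 against 1.83 over all libraries.

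Of the 2 transcription factors, E2f8 is a repressor of the E2F family with a known role in hepatocyte ploidy. It was at 3.0, 0.409, 7.71 and 4.84 FPKM in WT control and 0.863, 2.63, 1.62 and 1.59 FPKM in WT ethanol, then 0.679, 0.924, 3.9 and 1.14 FPKM in LKO control and 0.379, 0.193, 0.217 and 1.79 FPKM in LKO ethanol. The WT controls spread from 0.409 to 7.71 FPKM, and all groups overlapped. Exons of E2f8 share 610 of 5443 bases with Gm2788 on the opposite strand, which had a mean of 8.36 FPKM. Foxm1 differed by 1.35 (SE 0.56) with ethanol in WT, adjusted p = 0.22, and by -0.63 (SE 0.56) in LKO.

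Mki67, Top2a and Stmn1 mark dividing cells and encode the Ki-67 antigen, topoisomerase II alpha and a tubulin-binding protein. Mki67 was at 0.281, 0.15, 0.253 and 0.257 FPKM in WT control and 0.23, 1.23, 1.23 and 0.727 FPKM in WT ethanol, then 0.314, 0.421, 0.322 and 0.133 FPKM in LKO control and 0.283, 0.174, 0.0133 and 0.176 FPKM in LKO ethanol. WT ethanol 2, 3 and 4 stood above all other libraries and WT ethanol 1 lay within the controls. The value of LKO ethanol 3 rests on 3 reads and that of WT ethanol 3 on 300 reads.

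Top2a was at 0.442, 0.201, 0.291 and 0.211 FPKM in WT control and 0.335, 3.64, 1.95 and 0.788 FPKM in WT ethanol, then 0.446, 0.486, 0.488 and 0.288 FPKM in LKO control and 0.349, 0.345, 0.0427 and 0.124 FPKM in LKO ethanol. Stmn1 was at 4.06, 2.33, 6.62 and 3.8 FPKM in WT control and 2.38, 13.4, 16.6 and 11.3 FPKM in WT ethanol. In LKO, Stmn1 was at 3.98, 4.2, 3.96 and 4.53 FPKM on control diet and 3.43, 4.56, 1.34 and 2.17 FPKM on ethanol. For both genes WT ethanol 2, 3 and 4 were the 3 highest of the 16 libraries and LKO ethanol 3 the lowest. The differences in WT were 1.33 (SE 0.47) for Mki67, 1.81 (SE 0.56) for Top2a and 1.14 (SE 0.52) for Stmn1, with adjusted p of 0.16, 0.11 and 0.26.

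**Figure D4:**
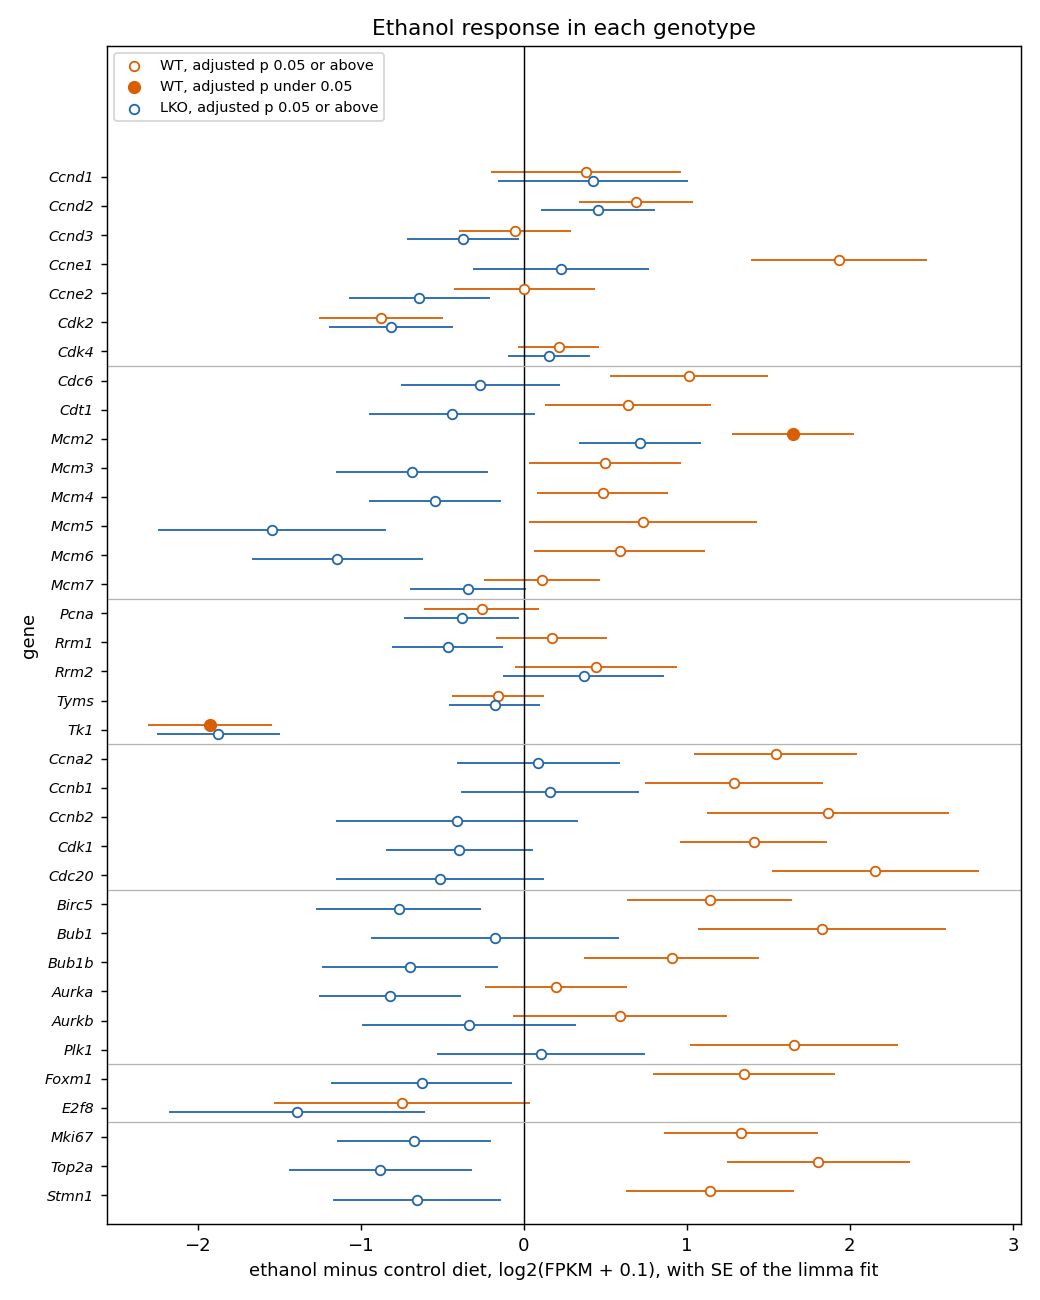
Ethanol minus control diet for each of the 36 genes, in log2(FPKM + 0.1) with the SE of the limma fit, orange in WT and blue in LKO. Filled points have an adjusted p under 0.05, and grey lines part the role groups. Mcm2 and Tk1 in WT are the filled points, and the 14 genes of S phase to mitosis, of the mitotic apparatus and of chromosomes have WT values from 0.20 to 2.16 and LKO values from -0.88 to 0.16.

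The number of calls in WT depended on WT ethanol 1. Without that library, 11 of the 36 genes were called with ethanol in WT, against 5.29% of all tested genes. Higher were Birc5, Ccne1, Cdc20, Cdk1, Foxm1, Mcm2, Mki67, Plk1, Stmn1 and Top2a, and Tk1 was lower. Their differences ranged from 1.68 for Cdk1 to 2.71 for Cdc20 among the 10 higher genes. Without WT ethanol 2, the library of low depth, Mcm2 (1.83, adjusted p = 0.016) and Tk1 (-1.78, adjusted p = 0.021) were called in WT and no other of the 36 genes.

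On the control diet no difference between the genotypes was called in these genes. By limma 0 of the 36 genes were called, by voom 0, against 0.00487% of all tested genes, and at an unadjusted p under 0.05 1 gene, Rrm2, was higher in LKO and 0 lower, where the shares over all genes were 0.687% and 3.32%. The differences split into 18 above and 18 below 0, with a median of -0.0028 where the median of all genes was -0.12. Under quantile normalization the median of all genes moved to 0.01, and 28 of the 36 were then above 0, with a median of 0.23.

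On the ethanol diet 34 of the 36 genes were lower in LKO than in WT, with a median of -1.16 against -0.13 over all genes. Under quantile normalization the median of all genes moved to 0.02, and 31 of the 36 genes were then lower, with a median of -0.79. By limma 0 genes were called, by voom 0, against 0.0195% of all tested genes. At an unadjusted p under 0.05, 22 genes were lower and 1, Rrm2, higher, where the shares over all genes were 9.98% and 2.37%. The 3 chromosome and tubulin genes had a median of -1.80, the 2 transcription factors -1.76 and the 5 S-to-M cyclins and kinases -1.69. The 6 mitotic kinase and checkpoint genes had a median of -1.67, the 8 licensing genes -1.18, the 7 G1 genes -0.21 and the 5 clamp and nucleotide genes -0.19. Top2a differed by -2.21 (SE 0.56), Mki67 by -1.80 (SE 0.47) and Cdk1 by -1.69 (SE 0.45), with adjusted p of 0.25, 0.26 and 0.26. Cdk1 and Cdc20 were lower in LKO without overlap, 2 of 36 genes against 2.55% of all genes, and 0 were higher without overlap, against 0.785%.

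This count depended on WT ethanol 1 as well. Listing the genes without it was again chosen after the values were seen. Without that library 13 of the 36 genes were called lower in LKO, against 2.13% of all tested genes, among them Top2a (-2.75, adjusted p = 0.019), Mki67 (-2.25, adjusted p = 0.021) and Mcm6 (-2.38, adjusted p = 0.022). The 3 chromosome and tubulin genes, 4 of the 8 licensing genes, 3 of the 6 mitotic kinase and checkpoint genes, 2 of the 5 S-to-M genes and Foxm1 made up the 13.

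The AU-rich heptamer was set beside the genotype differences. LKO minus WT on the control diet had a median of 0.01 over the 10 genes with the heptamer and of -0.01 over the 26 without it. On ethanol the medians were -1.13 and -1.19. The genes with and without the heptamer thus had like medians on both diets.

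Within the split of the libraries, the second side holds WT ethanol 3 and 4 and the first side holds WT ethanol 1 alone. The sides were set from these same expression values, the 36 genes included. A smaller spread within a side is thus built in, and calls within a side are no separate support. Among libraries of the second side the LKO minus WT median on ethanol was -1.91 over the 36 genes, and 20 were called lower, against 10.3% of all tested genes. That side includes LKO ethanol 3, the lowest library for 17 of the genes, whose score lay near 0. Among libraries of the first side, where the value rests on 1 WT ethanol library assumed to vary like the other groups, the median was 0.05 and 23 of the 36 differences were above 0. With a term for the side and without WT ethanol 2, 0 genes were called.

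The difference of the 2 ethanol responses was tested as an interaction. By limma 0 of the 36 genes were called, by voom 0, and 0.0% of all tested genes. At an unadjusted p under 0.05, 11 genes had a lower response in LKO and 0 a higher one, against 2.12% and 2.09% of all genes. The 3 with the smallest p were Top2a at -2.68 (SE 0.79), Mki67 at -2.01 (SE 0.67) and Cdc20 at -2.67 (SE 0.90), each with adjusted p = 0.84. A different response to ethanol in LKO and WT was therefore not shown for any 1 of these genes.

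Marker genes of other cell types were followed beside these values. The summed level of 8 Kupffer cell and macrophage markers ranged from 101 to 287 FPKM in WT control, 104 to 334 in WT ethanol, 100.3 to 330.3 in LKO control and 58.1 to 332 in LKO ethanol. WT ethanol 3 and 4, at 299 and 334 FPKM, and LKO ethanol 3 and 4, at 58.1 and 91.3 FPKM, were the 2 highest of the WT ethanol group and the 2 lowest of the LKO ethanol group. WT ethanol 3 and 4 also had the 2 lowest hepatocyte sums of the 16 libraries, 52748 and 43253 FPKM, and the 2 highest sums of 6 stellate cell markers, 151 and 164 FPKM. The sum of 7 lymphocyte markers was 1.28 to 3.52 FPKM in WT ethanol and 0.467 to 2.28 FPKM in LKO ethanol, and none of the markers was at 0 in all libraries. No macrophage, stellate or endothelial marker was called in any comparison. Some single markers had differences in the directions of the mitotic genes, and the sums are led by other markers. In WT with ethanol and in LKO against WT on ethanol these were 1.82 and -1.89 for Marco, 1.13 and -1.18 for Cd68, 1.34 and -1.02 for Des and 2.17 and -1.90 for Col1a1. With ethanol in WT, Adgre1 (-0.17), Vsig4 (-0.51), Timd4 (-0.23), Cd5l (-0.11), Dcn (-0.39) and Reln (-0.13) went the other way. Clec4f, Csf1r, Lrat and Col3a1, the rest of these macrophage and stellate markers, lay there between 0.02 and 0.27. In LKO against WT on ethanol, Vsig4 (0.07) and Dcn (0.81) went the other way and the rest were lower in LKO. For the mean ethanol difference 2 lymphocyte markers, the hepatocyte marker Cyp2e1 and the erythroid marker Klf1 were lower, and the neutrophil marker Retnlg and the cholangiocyte marker Sox9 were higher. Klf1 was also lower with ethanol in WT. The sum of 5 cholangiocyte markers was 75.0 FPKM in WT ethanol 2 and at most 28.5 FPKM in the other libraries. The part of these cells in the results was not tested.

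Genes of the same pathway that are not among the 36 were counted in 4 further lists. In WT, ethanol raised 1 of 14 cyclin-dependent kinase inhibitors and pocket proteins, Cdkn1a, which encodes the inhibitor p21. Cdkn1a was at 4.09, 1.71, 24.5 and 2.41 FPKM in WT control and 76.4, 42.2, 44.3 and 62.2 FPKM in WT ethanol, then 3.59, 0.806, 1.79 and 1.86 FPKM in LKO control and 23, 48.3, 48.5 and 6.72 FPKM in LKO ethanol. No ethanol library overlapped the controls of its genotype. The difference was 3.56 (SE 0.74, adjusted p = 0.027) in WT, 3.72 (adjusted p = 0.061, not called) in LKO and 3.64 (SE 0.52, adjusted p = 0.0020) over both genotypes.

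Of 39 mitosis genes, 36 were above 0 with ethanol in WT, with a median of 0.98 against 0.05 over all genes, and 1 was called, Hmmr at 1.77 (adjusted p = 0.038), a spindle protein. In LKO against WT on ethanol, 36 of the 39 were below 0, with a median of -1.18 against -0.13 over all genes, and 0 were called by limma. Of these 39, 30 were lower at an unadjusted p under 0.05, against 9.98% of all genes. Of 43 replication fork and origin genes, 25 were above 0 with ethanol in WT, with a median of 0.03, and 0 were called by limma. Of them, 5 were higher and 4 lower at an unadjusted p under 0.05, near the shares of 11.1% and 6.74% over all genes. Over both genotypes Mcm10, which acts in helicase activation, fell by 2.39 on the log2 scale (adjusted p = 0.023). Of 11 E2F and MYB factors, 0 were called by limma in any of the 6 comparisons, with 3 higher at an unadjusted p under 0.05 with ethanol in WT.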

How the data were processed

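RNA of 16 mouse liver libraries was analysed from the deposited table of FPKM values. The submitters' processing notes name fastp, STAR 2.6.1, HTSeq, DESeq2 and mm10, without role or order, and the use of strand in counting is not given in the sources used here. The authors had scaled the deposited FPKM values for gene length and library size. Low FPKM values were whole multiples of the value of 1 read, which gave back reads within 0.1 of a whole number for 100% of values and the totals of 9890475 to 24768569 reads.

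Values were taken as log2(FPKM + 0.1) for the 20520 genes above 0 in at least 4 libraries. A limma-trend model (limma 3.58.1, R 4.3.3) with 4 group means was tested in 6 contrasts, two-sided, with Benjamini-Hochberg adjustment over all genes and a threshold of 0.05. Libraries were numbered in accession order. The members and lists were chosen with earlier results of these data known. Values by library are given for Zfp36l1, for the 3 members with the smallest adjusted p in each contrast and for the member with the highest mean FPKM in each role, and of the other lists at most 3 called genes a contrast are named. Alternatives numbered 28 and included voom on the recovered reads, other scalings, filters and pseudocounts, and each library left out. Of these, 4 were chosen after seeing the data. Tested on simulated counts for ethanol against control diet in WT over 20345 genes, the model called 86% of genes changed 4-fold and 6% of those changed 2-fold, and 7.07% of its calls were unchanged genes. The changed genes were drawn only from genes above a minimum of reads. All genes and groups had the same spread, a squared coefficient of variation of 0.1. These shares may therefore not hold for members with few or uneven reads, such as Bub1 with 0 to 160 reads a library. Promoters came from RefSeq (GRCm38.p6) and untranslated regions from GENCODE M21. A result of the replication fork list is not reported here.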

Additional observations from a re-analysis of the deposited data

Results flagged for a closer look

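In 13 of the 144 combinations of gene and group, the highest library stood apart from the other 3, by Dixon's test of the gap to the next library over the range of the group. The test was run on FPKM without a log. Chance flags about 1 in 20 groups when either the highest or the lowest library may stand apart. WT ethanol 3 stood apart for Mcm7 at 8.77 FPKM, Rrm2 at 7.04 FPKM and Ccnb1 at 1.39 FPKM, and WT ethanol 2 for Bub1 at 4.73 FPKM. WT control 4 stood apart for Cdt1 at 1.95 FPKM, Mcm2 at 1.24 FPKM and Ccne1 at 0.768 FPKM, and WT control 3 for Plk1 at 0.205 FPKM. In LKO control, library 2 stood apart for Tk1 at 25.2 FPKM and Mcm7 at 4.02 FPKM, and library 3 for E2f8 at 3.9 FPKM. In LKO ethanol, library 4 stood apart for Tk1 at 8.59 FPKM and E2f8 at 1.79 FPKM. No lowest library stood apart in this way among the 144 combinations.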

How the results depend on the processing

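No paired analysis was possible because the labels give each library a number of its own, share none across groups and name no litter, batch or pair. Of 8 couples of a control and an ethanol library at the same position in accession order, 5 have consecutive numbers in their titles, and whether these mark pairs is not given in the sources used here. Leaving out 1 library at a time, the number of the 36 genes called by limma ranged from 0 to 11 for ethanol in WT, from 0 to 1 for ethanol in LKO, from 0 to 13 for LKO against WT on ethanol and from 2 to 4 for the mean ethanol difference. The counts of 0 in WT came without WT control 1, 2 or 4 or WT ethanol 4, and the counts of 11, 13 and 4 came without WT ethanol 1. For ethanol in LKO, 1 gene, Tk1, was called under quantile normalization, median-of-ratios scaling, a filter of at least 1 FPKM in 4 libraries, a term for the within-group split, and voom or quantile normalization without WT ethanol 2. Libraries of the first side alone, where WT ethanol is 1 library assumed to vary like the other groups, gave 0 calls for ethanol in WT and 0 for the mean ethanol difference. Libraries of the second side alone gave 20 calls for LKO against WT on ethanol and 1, Cdk2, for the mean ethanol difference. The sides were set from these same expression values. The difference of Top2a between LKO and WT on ethanol was 0.040 among libraries of the first side, near 0 and set by its 1 WT ethanol library, beside -2.21 over all libraries. The cause was not tested.

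For Mcm2 in WT the adjusted p ranged from 0.00839 to 0.215 over 28 alternatives and the call was lost in 12. For Tk1 it ranged from 0.00852 to 0.179 in WT, with the call lost in 6, and in LKO from 0.0112 to 0.423, with the call gained in 8. For the mean over both genotypes, Mcm2 and Tk1 lost the call in 2 of 28. Over all tested genes, calls ranged from 1 to 2038 for ethanol in WT and from 1 to 2111 for LKO against WT on ethanol. Limits are the low levels of most mitotic genes, 4 libraries a group, and WT ethanol 2, whose depth was under that of every other library.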
